A study of Homo sapiens with 18 samples.

Results

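Keratin genes of epithelial cells, 8 in all, were examined on 18 expression arrays of hepatocellular carcinoma cell lines: KRT7, KRT8, KRT10, KRT15, KRT18, KRT19, KRT23 and KRT80. A probe set, the group of oligonucleotides that reads 1 transcript, was kept when the array's annotation gave it exactly 1 of these 8 genes, which left 14 of the 54675 probe sets on the array and 8 of its 19775 genes. KRT7 had 4 probe sets, KRT10 had 3, KRT19 had 2, and the other genes had 1 each. Signals of all 14 are given as log2 values, and called differences also as folds.

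The cells were transfected either with small interfering RNA (siRNA) against ATAD2 or with a control siRNA that has no target. ATAD2 is a chromatin protein with an ATPase domain and a bromodomain, and the study asked about it as a target in liver cancer. The 6 groups, with 3 arrays each, were SNU449 with ATAD2 siRNA, SNU449 with control siRNA, PLC (PLC/PRF/5) with ATAD2 siRNA, PLC with control siRNA, Hep3B with ATAD2 siRNA and Hep3B with control siRNA. All were grown in RPMI medium and transfected with Lipofectamine RNAiMax, so the control arrays carry the transfection too. The treatment field calls the treated samples knockouts, whereas the treatment notes describe siRNA, and the replicates are named biological without saying what was separate between them, so that p-values measure the spread between these arrays only. Neither the time after transfection nor the number of siRNAs per gene is stated.

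ATAD2 signal was 5.23-fold lower with its siRNA in SNU449, 6.14-fold lower in PLC and 13.9-fold lower in Hep3B, with no overlap between siRNA and control arrays in any line. The line labels need a caution. RB1, the retinoblastoma gene that is known to be lost in Hep3B cells, read 4.27 to 4.75 on the arrays labelled SNU449 and 9.15 to 9.51 on those labelled Hep3B. ALB and AFP, liver proteins for which Hep3B is known, averaged 13.76 and 9.29 on control arrays labelled SNU449 and 3.03 and 5.15 on control arrays labelled Hep3B. The labels of these 2 lines therefore go against the usual description of the lines, and every line name below means the arrays that carry that label. Comparisons between siRNA and control stay within 1 label.

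Keratins build the intermediate filaments of epithelial cells. Each filament is made of obligate pairs of 1 type I (acidic) and 1 type II (basic) keratin, and a chain without its partner is degraded. KRT7, KRT8 and KRT80 are type II, and KRT10, KRT15, KRT18, KRT19 and KRT23 are type I. Hepatocytes are known for holding KRT8 and KRT18 alone, while bile duct cells and liver progenitor cells add KRT7 and KRT19, and pathologists stain KRT7 and KRT19 in liver tumours to look for such cells. KRT10 belongs to the suprabasal layers of the epidermis, KRT15 to its basal layer and the hair follicle, KRT80 is a keratin of differentiating epithelia that lies near desmosomes, and KRT23 is a type I keratin described in damaged liver and in several carcinomas.

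In the RefSeq annotation the type II genes KRT80 and KRT7 lie next to each other on chromosome 12, with no protein-coding gene between them. KRT8 and KRT18, a type II and a type I gene, are likewise neighbours on chromosome 12. KRT15 and KRT19 are neighbours on chromosome 17, which also holds KRT10 and KRT23. RefSeq lists 52 KRT8 pseudogenes, 68 KRT18 pseudogenes and 5 KRT19 pseudogenes, named by symbol, and the only probe sets of KRT8 and KRT18 carry the array maker's suffix for probes that may also bind other transcripts. Signal of such copies cannot be separated from that of KRT8 or KRT18 here.

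The RefSeq promoter table of the build GRCh38.p14 held only 2 of the 8 genes, KRT8 and KRT10, and both windows are printed. Each window is 300 bases long, most of it before the listed start, and lies on the minus strand, at chr12:52926420-52926719 for KRT8 and at chr17:40822565-40822864 for KRT10, and capitals mark the only match to a TATA box (TATAAA).
KRT8: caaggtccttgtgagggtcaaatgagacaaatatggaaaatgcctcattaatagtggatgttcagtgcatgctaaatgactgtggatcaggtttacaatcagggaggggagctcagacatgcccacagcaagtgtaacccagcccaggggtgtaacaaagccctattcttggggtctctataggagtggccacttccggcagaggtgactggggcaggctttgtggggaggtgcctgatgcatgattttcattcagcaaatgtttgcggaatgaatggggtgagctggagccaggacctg
KRT10: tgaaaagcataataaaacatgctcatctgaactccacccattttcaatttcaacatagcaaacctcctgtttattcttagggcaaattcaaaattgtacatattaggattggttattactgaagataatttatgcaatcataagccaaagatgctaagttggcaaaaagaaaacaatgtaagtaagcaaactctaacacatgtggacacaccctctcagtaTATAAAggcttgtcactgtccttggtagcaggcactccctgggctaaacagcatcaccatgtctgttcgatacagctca
The windows were searched on both strands for TATAAA, a GC box (GGGCGG), the E-box bound by ZEB and SNAI factors (CAGGTG) and an AP-1 site (TGAGTCA). The KRT10 window held TATAAA once, at position -29 from the start, and the KRT8 window held none of the 4 motifs. RefSeq places KRT8 from 52897191 to 52949860, so the KRT8 window lies inside the annotated gene. Sequence before any other KRT8 start was not searched, so the KRT8 result covers this listed start only. The KRT10 window covers the upper end of its gene at 40822614. Over all 35116 promoter windows of 300 bases in the table, 11.5% held TATAAA, 45.0% GGGCGG, 20.6% CAGGTG and 4.9% TGAGTCA.

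To say whether a keratin was detected, its signal was set beside that of 19 probe sets of 13 genes that liver cells do not use, such as insulin and cardiac myosin. Their signals over the 18 arrays had a median of 4.57, a 95th percentile of 6.09 and a maximum of 6.64, and values up to 6.09 are called the background range here. Where 1 of 2 groups compared lies within that range, the fold between lines is given as a lower bound, with each array of the dimmer group set to 6.09 or its own value, whichever is higher, and where both do no fold is given; the log2 differences and p-values are those of the measured signals. The probe sets of KRT8 and KRT18 and all 3 of KRT10 lay above it in all 6 groups. The leading probe sets of KRT7, KRT19 and KRT80 each lay above it in 2 groups, which were both groups of a single line in each case, and KRT23 in 3 groups. The KRT7 probe set 1558393_at passed it narrowly in both SNU449 groups (6.12 with ATAD2 siRNA, 6.22 with control siRNA). KRT15, the second KRT19 probe set and the other 2 KRT7 probe sets stayed within it in every group.

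**Figure D1:**
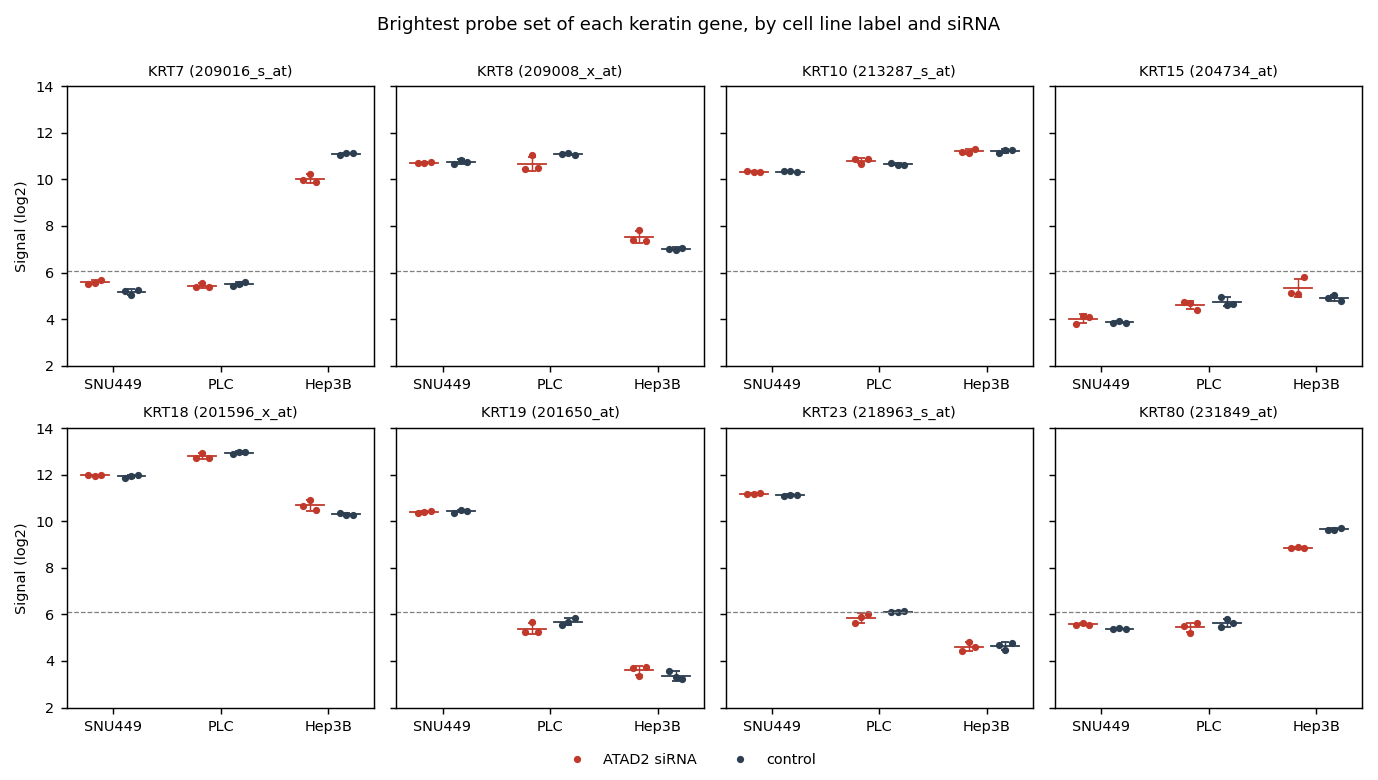
Log2 signal (vertical axis) of the brightest probe set of each of the 8 keratin genes on all 18 arrays, by line label and siRNA; dots are arrays, horizontal bars are means and whiskers are SDs (n = 3), and the dashed line is the upper end of the background range at 6.09. KRT7 and KRT80 stand above the line on Hep3B-labelled arrays only, KRT19 on SNU449-labelled arrays only, and KRT8 and KRT18 are lowest on Hep3B-labelled arrays.

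On control arrays the keratins fell into 3 patterns. On the brightest probe set of each gene, KRT8, KRT18, KRT19 and KRT23 were higher in SNU449 and PLC than in Hep3B. KRT7 and KRT80 were higher in Hep3B than in the other lines. KRT10 and KRT15 differed by about 1 log2 unit or less in the quantile-normalized values, but KRT10 differed by more with each array centred on its median. For KRT19, however, both PLC (5.69) and Hep3B (3.36) lay within the background range, and KRT23 in PLC (6.11) lay at its edge. Only SNU449 stood well above that range for these 2 genes. Calls between lines needed an adjusted p under 0.05 in limma, fitted to all probe sets with Benjamini-Hochberg adjustment, and a log2 difference of at least 1. For SNU449 against Hep3B, 7 of the 14 probe sets were called (4 higher, 3 lower), where 17.1% of all probe sets were called (8.76% higher, 8.36% lower). For PLC against Hep3B 6 were called (4 higher, 2 lower), beside 15.8% of all (8.28% higher, 7.57% lower). For SNU449 against PLC 3 were called (2 higher, 1 lower), beside 17.3% of all (8.52% higher, 8.79% lower). The median absolute difference of the 14 was 0.96, 0.75 and 0.61 in these 3 comparisons, against 0.34, 0.38 and 0.41 over all probe sets. The line comparisons share groups, so these counts are not independent of each other. They also depend on how the arrays are scaled: against the quantile-normalized values used here, the median of all probe sets moved by -0.71 for PLC minus Hep3B and 0.87 for SNU449 minus PLC in the values as deposited, and by 0.54 and -0.58 with each array centred on its median. The calls of KRT7 209016_s_at, KRT8, KRT18, KRT19 201650_at and KRT80 against Hep3B kept their direction and passed in all 32 settings tried, and so did that of KRT23 in SNU449.

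Among the type II keratins, KRT8, the hepatocyte keratin, read 10.64, 10.85 and 10.77 on the control arrays of SNU449, 11.08, 11.15 and 11.06 on those of PLC, and 7.02, 6.96 and 7.07 on those of Hep3B. The Hep3B arrays stood apart from all others, and the signal was 13.3-fold higher in SNU449 than in Hep3B (log2 difference 3.74 ± 0.14 SE, limma adjusted p = 1.98e-13) and 16.9-fold higher in PLC than in Hep3B (4.08 ± 0.14, adjusted p = 7.02e-14). The difference of SNU449 from PLC (-0.34) was under the minimum for a call.

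KRT7, the bile duct keratin, had the opposite order on its brightest probe set, 209016_s_at. Control arrays read 5.19, 5.03 and 5.25 in SNU449, 5.41, 5.53 and 5.61 in PLC, and 11.06, 11.13 and 11.13 in Hep3B. The first 2 lines lay within the background range, and the signal was at least 32.5-fold lower in SNU449 than in Hep3B (-5.95 ± 0.09, limma adjusted p = 2.34e-18) and at least 32.5-fold lower in PLC than in Hep3B (-5.59 ± 0.09, adjusted p = 6.64e-18).

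The other 3 KRT7 probe sets did not show this difference. Control means of 1558393_at were 6.22 in SNU449, 5.61 in PLC and 6.05 in Hep3B; those of 214031_s_at were 4.75, 3.90 and 4.45; and those of 1558394_s_at were 3.06, 3.66 and 2.73. None of them was called between lines, and on 1558394_s_at PLC was the highest line, 0.94 above Hep3B. In the values as deposited, in which the PLC arrays are lower over all probe sets, 1558393_at and 214031_s_at were called lower in PLC than in Hep3B (-1.42 and -1.59, limma adjusted p = 3.03e-10 and 5.22e-11). The difference in KRT7 signal between lines therefore rests on 1 of its 4 probe sets, the only one that exceeded 6.64, the highest signal among the genes that liver cells do not use.

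KRT80 followed the KRT7 pattern on its single probe set. Control arrays read 5.39, 5.43 and 5.36 in SNU449, 5.47, 5.81 and 5.65 in PLC, and 9.64, 9.64 and 9.72 in Hep3B. The signal was at least 12-fold lower in SNU449 than in Hep3B (-4.27 ± 0.09, limma adjusted p = 1.46e-16) and at least 12-fold lower in PLC than in Hep3B (-4.02 ± 0.09, adjusted p = 4.14e-16). Thus the neighbouring genes KRT7 and KRT80 were both within the background range in SNU449 and PLC and well above it in Hep3B.

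Among the type I keratins, KRT18, the partner of KRT8, followed KRT8 in being lowest in Hep3B. Control arrays read 11.86, 11.92 and 11.99 in SNU449, 12.87, 12.99 and 12.96 in PLC, and 10.36, 10.28 and 10.26 in Hep3B. The signal was 3.08-fold higher in SNU449 than in Hep3B (1.63 ± 0.09, limma adjusted p = 1.06e-10), 6.23-fold higher in PLC than in Hep3B (2.64 ± 0.09, adjusted p = 1.7e-13) and 2.02-fold lower in SNU449 than in PLC (-1.01 ± 0.09, adjusted p = 5.57e-08). The difference between PLC and Hep3B was thus smaller on the KRT18 probe set than on the KRT8 probe set, although the scale of each probe set is its own.

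KRT19, the second bile duct keratin, was highest in SNU449. Its probe set 201650_at read 10.37, 10.48 and 10.45 on control arrays of SNU449, 5.56, 5.66 and 5.84 on those of PLC, and 3.59, 3.29 and 3.21 on those of Hep3B. The signal was at least 20.3-fold higher in SNU449 than in Hep3B (7.07 ± 0.13, limma adjusted p = 1.25e-17) and at least 20.3-fold higher in SNU449 than in PLC (4.74 ± 0.13, adjusted p = 3.95e-15). PLC also read above Hep3B (2.33 ± 0.13, adjusted p = 4.94e-11), but both lay within the background range. The second KRT19 probe set, 228491_at, lay in the background range in every group, with means between 3.94 and 4.34, and was not called between any lines. KRT7 and KRT19, which mark the same bile duct cells in normal liver, were thus high in different lines.

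KRT23 had nearly the pattern of KRT19. Control arrays read 11.07, 11.14 and 11.13 in SNU449, 6.09, 6.11 and 6.13 in PLC, and 4.69, 4.47 and 4.77 in Hep3B. The signal was at least 32.6-fold higher in SNU449 than in Hep3B (6.47 ± 0.11, limma adjusted p = 4.44e-18), 32.0-fold higher in SNU449 than in PLC (5.00 ± 0.11, adjusted p = 2.27e-16) and higher in PLC than in Hep3B (1.47 ± 0.11, adjusted p = 2.5e-09). PLC lay at the edge of the background range, so no fold is given for it over Hep3B, and the difference was 0.50 in the values as deposited, under the minimum for a call. The log2 difference of SNU449 from PLC ran from 4.08 to 5.55 over the alternative settings, so the 32.0-fold is approximate.

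In the quantile-normalized values the epidermal keratins varied least among the brightest probe sets of the 8 genes. KRT10 was well above the background range in every group on all 3 probe sets: control means of 213287_s_at were 10.33 in SNU449, 10.66 in PLC and 11.21 in Hep3B. Its other probe sets, 210633_x_at and 207023_x_at, carry the same suffix as those of KRT8 and KRT18, for probes that may also bind other transcripts. SNU449 lay below Hep3B on each of the 3 (-0.88, -0.86 and -0.88, limma adjusted p = 1.34e-08, 2.65e-08 and 1.18e-09), a shift under the minimum difference for a call. The order of PLC and Hep3B depended on the scaling: the difference on 210633_x_at, as PLC minus Hep3B, was -0.15 with overlapping arrays but 1.26 with each array centred on its median. SNU449 minus PLC was -0.32, -0.71 and -0.55 on the 3 probe sets, but -1.92, -2.26 and -2.03 with median-centred arrays, where all 3 were called. SNU449 minus Hep3B on 213287_s_at was also called there (-1.06). How little KRT10 varied between lines thus depended on the scaling. KRT15 stayed in the background range on all arrays, with control means of 3.88 in SNU449, 4.74 in PLC and 4.92 in Hep3B. SNU449 was called lower than Hep3B for KRT15 (-1.04 ± 0.16, adjusted p = 2.8e-05), a difference between signals that were both near background and that was under 1 in the values as deposited (-0.96).

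**Figure D2:**
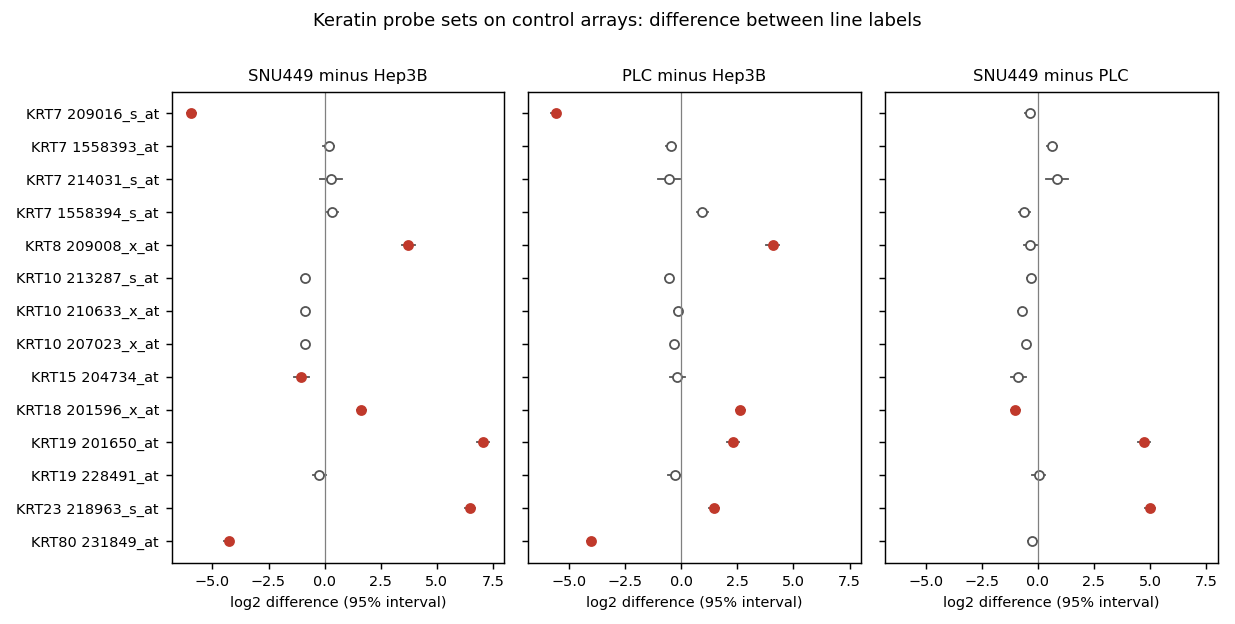
Log2 difference between line labels on control arrays (horizontal axis) for each of the 14 keratin probe sets, in 3 panels: SNU449 minus Hep3B, PLC minus Hep3B, and SNU449 minus PLC; points are limma estimates, lines are 95% intervals, and filled red points passed the adjusted p of 0.05 with a difference of at least 1. KRT8, KRT18, KRT19 and KRT23 lie right of 0 and KRT7 209016_s_at and KRT80 left of 0 in both panels against Hep3B.

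Cell type markers of the same arrays also differed between the lines. The mean of 6 hepatocyte markers (ALB, APOA1, APOB, TTR, SERPINA1, AFP) was 11.65 to 11.68 on control arrays of SNU449, 9.54 to 9.57 on those of PLC and 4.59 to 4.84 on those of Hep3B. That of 7 mesenchymal markers (VIM, COL1A1, COL1A2, SPARC, ZEB1, CDH2, AXL) ran the other way, with 6.29 to 6.34 in SNU449, 7.68 to 7.71 in PLC and 10.26 to 10.27 in Hep3B. Against Hep3B, 5 of these 7 were called lower in SNU449 and 4 in PLC, beside 19.7% and 18.4% of all genes. Between SNU449 and PLC they were split, with 1 called higher and 3 lower in SNU449, beside 19.2% of all genes. The mean of 5 biliary and progenitor markers (SOX9, EPCAM, SPP1, CD24, PROM1) was 9.93 to 10 in SNU449, 8.02 to 8.15 in PLC and 7.34 to 7.38 in Hep3B. Its members were split. Against Hep3B, 2 were called higher and 3 lower in PLC (median difference -1.21), where 18.4% of all genes were called. In SNU449, 2 were called higher and 2 lower than in Hep3B (median 0.04), beside 19.7% of all genes. Within that list EPCAM, an epithelial adhesion protein, averaged 12.47, 6.09 and 2.73 in the 3 lines, whereas SOX9, a transcription factor of bile duct cells, averaged 9.51, 7.49 and 10.70. The mean of 4 leukocyte markers was 6.57 to 6.79 in SNU449, 5.84 to 6.10 in PLC and 4.18 to 4.28 in Hep3B. Within that list lysozyme (LYZ) averaged 12.12, 11.05 and 2.37 in the 3 lines, whereas PTPRC, which all leukocytes carry, averaged 3.27, 2.77 and 3.66, within the background range. The mean of 4 endothelial markers was at most 4.78 on any control array. The part of these differences in the keratin values was not tested. In RNA of whole cultures, fewer cells that hold a transcript and less of it per cell cannot be told apart.

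With ATAD2 siRNA, keratins changed in Hep3B and none was called in SNU449 or PLC. In Hep3B 4 of the 14 probe sets passed an adjusted p of 0.05: KRT7 and KRT80 fell and KRT8 and KRT18 rose. Over all probe sets 8.86% were called in Hep3B (5.08% higher, 3.78% lower), 0.0439% in SNU449 and 3.44% in PLC. At an unadjusted p under 0.05 in limma, 2 of the 14 passed in SNU449 and 6 in PLC, where 7.49% and 19.6% of all probe sets did so. The median change of the 14 was -0.005 in SNU449, -0.11 in PLC and 0.04 in Hep3B, against -0.003, 0.004 and -0.008 over all probe sets. All siRNA arrays lay on 1 side of all control arrays for 4 of the 14 in SNU449, 3 in PLC and 6 in Hep3B, where 19.6%, 16.7% and 26.7% of all probe sets did so. With 3 arrays against 3, an exact permutation test cannot give a two-sided p below 0.1, so the calls rest on the spread that limma shares across groups and probe sets.

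KRT7 gave the largest change of the keratins. In Hep3B its probe set 209016_s_at read 9.97, 10.23 and 9.89 with ATAD2 siRNA and 11.06, 11.13 and 11.13 with control siRNA. The groups did not overlap, and the signal fell 2.11-fold (-1.08 ± 0.09 SE, limma adjusted p = 1.11e-06). In SNU449 the same probe set read 5.50, 5.57 and 5.70 with ATAD2 siRNA and 5.19, 5.03 and 5.25 with control siRNA, a difference of 0.43 ± 0.09 inside the background range that did not pass (adjusted p = 0.151). In PLC it read 5.39, 5.56 and 5.38 against 5.41, 5.53 and 5.61, and the 2 groups overlapped (-0.08, adjusted p = 0.712). With the 4 KRT7 probe sets averaged, the fall in Hep3B was -0.33 and still passed. That average includes 209016_s_at, so it gives no separate evidence from the other 3. The other 3 KRT7 probe sets, which were not called between lines either, had no call in any line (214031_s_at was called in PLC with the 5′ to 3′ covariate described below, -0.82, adjusted p = 0.0309), and in Hep3B their changes lay between -0.14 and 0.03.

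KRT80 fell in Hep3B as well. It read 8.86, 8.90 and 8.83 with ATAD2 siRNA and 9.64, 9.64 and 9.72 with control siRNA in Hep3B, again without overlap, a 1.74-fold lower signal (-0.80 ± 0.09, limma adjusted p = 2.2e-05). In SNU449 it read 5.57, 5.64 and 5.56 against 5.39, 5.43 and 5.36 (0.20 ± 0.09, adjusted p = 0.656), and in PLC 5.49, 5.22 and 5.61 against 5.47, 5.81 and 5.65 (-0.20 ± 0.09, adjusted p = 0.238), all within the background range. KRT7 and KRT80 thus fell with ATAD2 siRNA in the line in which their signal stood above the background range, and their control signal was within it in the other lines.

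KRT8 rose in Hep3B, the line with its lowest signal. It read 7.40, 7.84 and 7.33 with ATAD2 siRNA and 7.02, 6.96 and 7.07 with control siRNA in Hep3B, so that every siRNA array was above every control array (1.42-fold, 0.51 ± 0.14, limma adjusted p = 0.0251). In SNU449 the values were 10.70, 10.69 and 10.75 against 10.64, 10.85 and 10.77, a difference of -0.04 with a 95% interval from -0.33 to 0.25. In PLC they were 10.46, 11.03 and 10.50 against 11.08, 11.15 and 11.06, lower on all 3 siRNA arrays but not past the threshold (-0.43 ± 0.14, adjusted p = 0.0866).

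KRT18 followed its partner. In Hep3B it read 10.64, 10.92 and 10.48 with ATAD2 siRNA and 10.36, 10.28 and 10.26 with control siRNA, without overlap (1.3-fold, 0.38 ± 0.09, limma adjusted p = 0.0153). In SNU449 the values were 12, 11.93 and 11.98 against 11.86, 11.92 and 11.99 (0.05 ± 0.09), and in PLC 12.71, 12.95 and 12.72 against 12.87, 12.99 and 12.96 (-0.15 ± 0.09, adjusted p = 0.428). The groups overlapped in both of these lines.

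The increases of KRT8 and KRT18 in Hep3B were near the threshold. Without Hep3B siRNA replicate 2, the highest array for both genes, the KRT8 change was 0.35 (limma adjusted p = 0.13) and the KRT18 change 0.26 (adjusted p = 0.0695). The KRT8 call was also lost without control replicate 1, 2 or 3 of Hep3B (adjusted p = 0.0676, 0.0968 and 0.0557), but the change then stayed at 0.51, 0.48 and 0.54. The KRT18 call was lost without control replicate 2 or 3 (0.0601 and 0.0626), with changes of 0.37 and 0.36. It was also lost with each line fitted by itself (0.38, limma adjusted p = 0.0733). In PLC, KRT8 was called lower without siRNA replicate 2 (-0.62, adjusted p = 0.00236), in the values as deposited (-0.53, adjusted p = 0.0494), with median-centred arrays (-0.55, adjusted p = 0.0442) and with an intensity trend (-0.43, adjusted p = 0.0446).

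These arrays also differed in the signal balance of control probe sets that read the 5′ and 3′ ends of beta-actin and GAPDH, a measure of how intact the RNA was and how evenly it was labelled. The 5′ minus 3′ difference of PLC arrays was -1.16, -0.47 and -1.08 with ATAD2 siRNA and -0.57, -0.49 and -0.44 with control siRNA. PLC siRNA replicates 1 and 3, the low arrays on this measure, were also the arrays with low KRT8 and KRT18, and replicate 2 lay closer to the controls on both, although its KRT8 signal of 11.03 was below all 3 controls. In Hep3B the measure was -0.69, -0.39 and -0.65 with ATAD2 siRNA and -0.58, -0.71 and -0.65 with control siRNA, and siRNA replicate 2 was again the highest array on it and on both keratins. With this measure as a covariate, a setting added after the data were seen, the changes in Hep3B were 0.44 for KRT8 (limma adjusted p = 0.00103) and 0.34 for KRT18 (adjusted p = 0.00494), and the KRT8 change in PLC was -0.06 (adjusted p = 0.843). KRT7 and KRT80 in Hep3B stood at -1.10 and -0.78 in the same fit. Hepatocyte markers also read lower with ATAD2 siRNA in PLC, where their mean was 9.02 to 9.19 against 9.54 to 9.57 and 4 of 6 fell, where 3.21% of all genes were called (ALB -1.02, APOA1 -0.71, SERPINA1 -0.49 and AFP -0.38), and their part in the keratin values was not tested. In Hep3B the mean of the mesenchymal markers was 10.36 to 10.37 with ATAD2 siRNA and 10.26 to 10.27 with control siRNA, with 1 of 7 called (SPARC, 0.83), that of the biliary and progenitor markers 7.37 to 7.55 and 7.34 to 7.38, with 1 of 5 called (PROM1, 0.20), and that of the hepatocyte markers 4.60 to 4.75 and 4.59 to 4.84, with 0 of 6 called, where 12.5% of all genes were called. The part of these shifts in the Hep3B changes was not tested either.

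**Figure D3:**
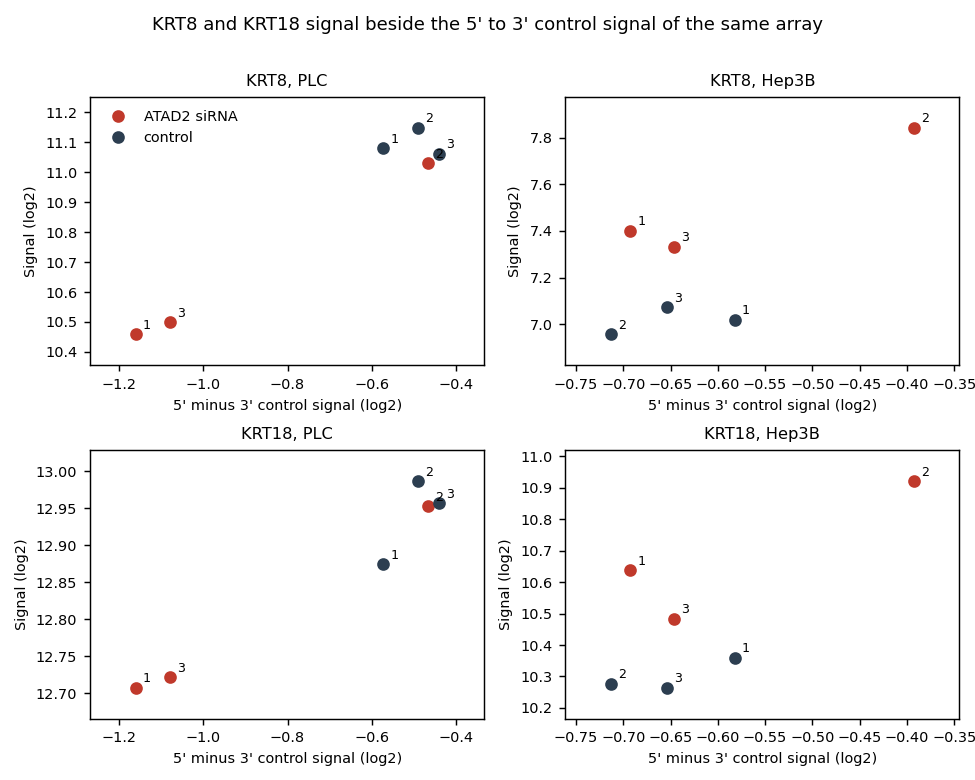
Log2 signal of KRT8 and KRT18 (vertical axes) against the 5′ minus 3′ log2 signal difference of beta-actin and GAPDH on the same array (horizontal axes) in PLC and Hep3B; each dot is an array, numbered by replicate. In PLC, siRNA replicates 1 and 3 are low on both axes and replicate 2 lies near the controls, just below all 3 of them for KRT8; in Hep3B, siRNA replicate 2 is highest on both.

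The remaining keratins had no call in any line. KRT19 on 201650_at read 10.37, 10.39 and 10.44 with ATAD2 siRNA and 10.37, 10.48 and 10.45 with control siRNA in SNU449, where it is abundant, and the groups overlapped. In PLC it read 5.24, 5.66 and 5.24 against 5.56, 5.66 and 5.84 (-0.31 ± 0.13, limma adjusted p = 0.182), and in Hep3B 3.69, 3.36 and 3.72 against 3.59, 3.29 and 3.21 (0.23 ± 0.13, adjusted p = 0.354). KRT23 read 11.15, 11.18 and 11.23 against 11.07, 11.14 and 11.13 in SNU449, a difference of 0.08 ± 0.11, and 5.63, 5.90 and 6.02 against 6.09, 6.11 and 6.13 in PLC (-0.26 ± 0.11, adjusted p = 0.175). In Hep3B KRT23 read 4.42, 4.82 and 4.61 against 4.69, 4.47 and 4.77, with overlapping groups.

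KRT15 in Hep3B read 5.11, 5.09 and 5.79 with ATAD2 siRNA and 4.92, 5.05 and 4.78 with control siRNA (0.41 ± 0.16, limma adjusted p = 0.145), inside the background range and with 1 siRNA array well above the others. KRT10 differed most in PLC, by 0.15, 0.21 and 0.17 on its 3 probe sets (adjusted p = 0.262, 0.127 and 0.124), and 207023_x_at was higher on all siRNA arrays there (9.82, 9.77 and 9.88 against 9.68, 9.66 and 9.61). Without PLC siRNA replicate 2 the KRT19 change in PLC was -0.45 (adjusted p = 0.0206) and those of KRT10 on 210633_x_at and 213287_s_at were 0.28 and 0.22 (0.0211 and 0.0444). PLC siRNA was also the group with the widest replicate spread: the median SD of the 14 probe sets was 0.20 there, against 0.05 to 0.13 in the other groups.

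**Figure D4:**
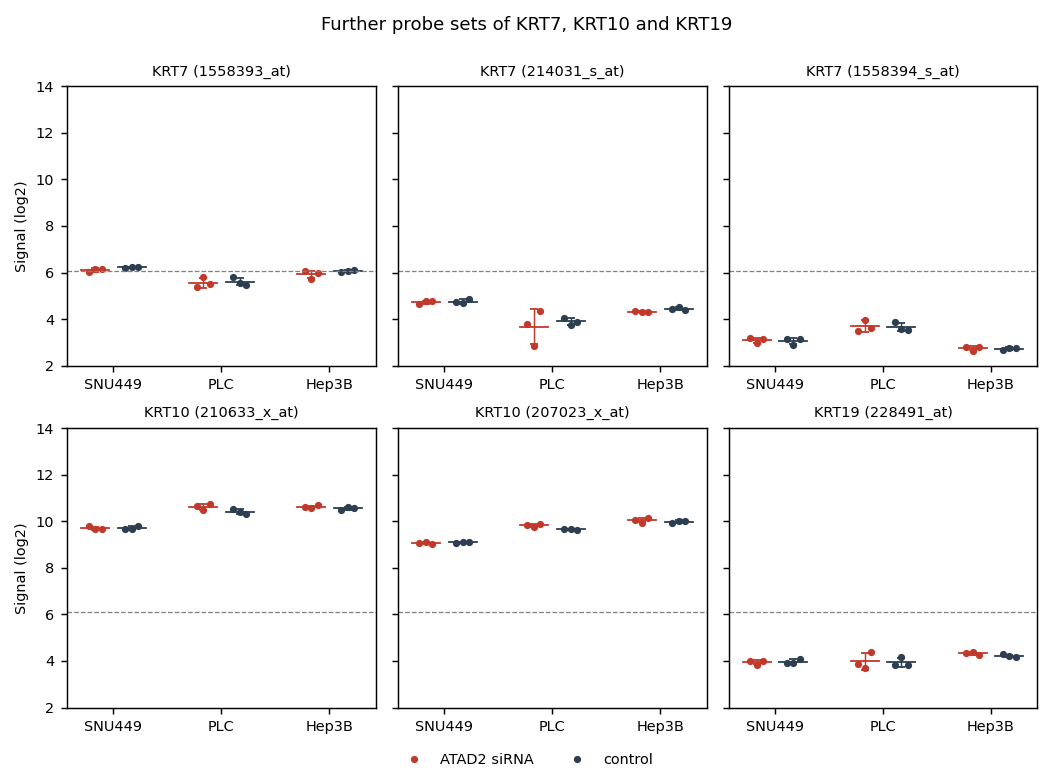
Log2 signal (vertical axis) on all 18 arrays of the 6 keratin probe sets that are not the brightest of their gene, by line label and siRNA; dots are arrays, bars are means, whiskers are SDs (n = 3), and the dashed line is the upper end of the background range at 6.09. Both KRT10 probe sets lie far above the line in every group, the KRT7 and KRT19 probe sets lie near or below it, and the widest group is KRT7 214031_s_at in PLC with ATAD2 siRNA (3.79, 2.86 and 4.34).

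Whether the response differed between lines was tested directly, as an interaction of siRNA and line in the same limma fit. The joint test over the 3 lines called 3 of the 14 probe sets (KRT7 209016_s_at, KRT8 and KRT80), where 4.67% of all probe sets were called. The response of KRT7 was 1.51 ± 0.13 higher in SNU449 than in Hep3B (adjusted p = 7.14e-06) and 1.0 ± 0.13 higher in PLC than in Hep3B (adjusted p = 0.000355), although with its 4 probe sets averaged the second difference was 0.25 and was not called (adjusted p = 0.114). That of KRT80 was 1.0 ± 0.13 higher in SNU449 than in Hep3B (adjusted p = 0.000299) and 0.60 ± 0.13 higher in PLC than in Hep3B (adjusted p = 0.0136). These differences set a fall in the line where both genes are detected against lines where both are in the background range, which leaves little room for a measurable fall. The KRT80 difference between PLC and Hep3B was lost in 7 of 30 alternative settings, among them the values as deposited (0.47, adjusted p = 0.0794).

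For KRT8 the response was lower in PLC than in Hep3B (-0.94 ± 0.19, limma adjusted p = 0.00996), and the same held for KRT18 (-0.53 ± 0.13, adjusted p = 0.0311), although the joint test of KRT18 did not pass (adjusted p = 0.0660). Both genes are detected in both lines. With the 5′ minus 3′ measure as a covariate these differences were -0.51 for KRT8 (adjusted p = 0.0401) and -0.29 for KRT18 (adjusted p = 0.210), and the KRT18 call was lost in 10 of 30 settings, among them the replicate block (-0.53, adjusted p = 0.0573). Without PLC siRNA replicates 1 and 3 the KRT8 difference was -0.58 (adjusted p = 0.0652), with 1 PLC siRNA array left whose spread is assumed to be that of the other groups. The joint KRT8 call was lost with the replicate block (adjusted p = 0.0551) and without Hep3B control replicate 1 or 2 (0.0526 and 0.0672). The KRT8 response in SNU449 differed from that in Hep3B by -0.55 (adjusted p = 0.194), and by -0.47 with the covariate (adjusted p = 0.0202). No keratin probe set differed between SNU449 and PLC at the threshold, beside 0.113% of all, although 4 of the 14 had an unadjusted p under 0.05, as had 14.4% of all. Pairwise, 2 of the 14 were called for SNU449 against Hep3B (2.69% of all) and 4 for PLC against Hep3B (5.25% of all).

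**Figure D5:**
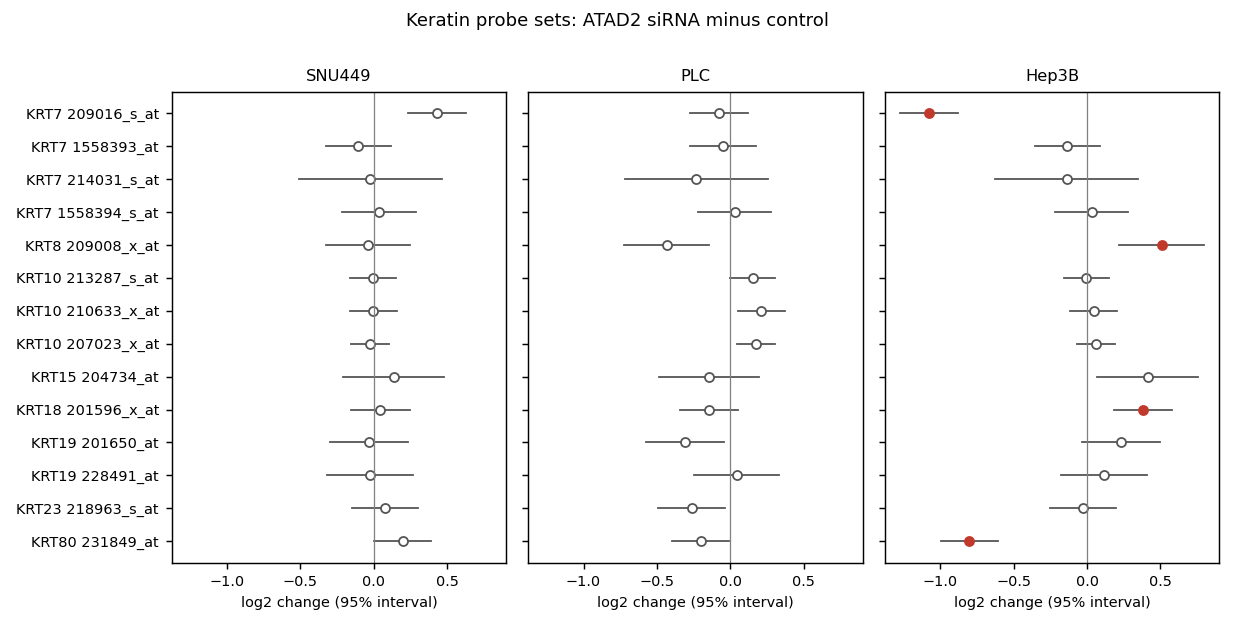
Log2 change with ATAD2 siRNA, as siRNA minus control (horizontal axis), of each of the 14 keratin probe sets in SNU449, PLC and Hep3B; points are limma estimates, lines are 95% intervals, and filled red points passed the adjusted p of 0.05. The 4 filled points are all in Hep3B: KRT7 209016_s_at at -1.08, KRT80 at -0.80, KRT8 at 0.51 and KRT18 at 0.38.

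The profiles were compared by the root mean square distance between probe sets, each centred on its own mean over the 18 arrays, which fall into 3 clusters by line. Profiles were not scaled, so the distance depends on size as well as shape, and probe sets that vary little lie close together. The median distance to all other genes was 2.47 for KRT7, 1.72 for KRT8, 0.48 for KRT10 and 0.62 for KRT15. It was 1.05 for KRT18, 2.94 for KRT19, 2.84 for KRT23 and 1.81 for KRT80. Among the 28 pairs of the 8 brightest probe sets, the closest were KRT10 and KRT15 (0.27), which both vary little in the quantile-normalized values. Next came KRT19 and KRT23 (0.35), KRT7 and KRT80 (0.68), and KRT8 and KRT18 (0.83). KRT7 with KRT80 and KRT8 with KRT18 are chromosomal neighbours. The neighbours KRT15 and KRT19 ranked 22 of 28 (3.40), and the bile duct pair KRT7 and KRT19 was the most distant (5.00). Over 19775 genes, the profiles nearest to KRT19 were GPC3, a glypican expressed in liver tumours (0.17), the hexokinase HK2 (0.25) and KRT23 (0.35), and those nearest to KRT23 were SERPIND1, the plasma protein heparin cofactor II (0.28), KRT19 (0.35) and GPC3 (0.37). Nearest to KRT7 were TOX (0.32), RFTN1 (0.34) and the Wnt receptor FZD2 (0.34), and nearest to KRT80 were the adrenergic receptor ADRA1B (0.20), DENND2A (0.20) and BCAR3 (0.25). Nearest to KRT8 were RADX (0.26), the apolipoprotein APOM (0.27) and SNTB1 (0.30), and nearest to KRT18 were the chemokine CXCL16 (0.14), PNPT1 (0.16) and SLC60A2 (0.16). For KRT10 the nearest were OTUD5 (0.06), WAC (0.08) and HADHB (0.08). For KRT15, whose signal lay in the background range, they were KIFBP (0.19), SPIDR (0.20) and ORAI1 (0.20).

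Of the other keratin genes, 36 of 47 had a probe set of their own, and their mean signal was between 4.49 and 4.71 on every array, in the background range. With ATAD2 siRNA 0 of 36 were called in SNU449, 3 in PLC and 1 in Hep3B, beside 0.0759%, 3.21% and 12.5% of all genes. KRT20, the type I keratin of intestinal epithelium and urothelium, averaged 2.85 in SNU449, 9.44 in PLC and 3.14 in Hep3B on control arrays, so that PLC was 6.31 ± 0.08 above Hep3B (limma adjusted p = 2.33e-19). KRT20 fell in PLC with ATAD2 siRNA (9.02 against 9.44, -0.42 ± 0.08, adjusted p = 0.0112). The other calls, KRT24 (4.47 against 4.04) and KRT27 (3.97 against 3.53) higher in PLC and KRT75 (4.87 against 5.08) lower in Hep3B, were in the background range. None of these calls was followed through the alternative settings. For KRT20 the limits of the PLC siRNA arrays apply: replicates 1 and 3 were low on the 5′ minus 3′ measure. The 1881 PLC calls over all probe sets were 3 with the line fitted by itself. KRT222, a keratin-like gene, averaged 2.54 in SNU449, 6.73 in PLC and 4.88 in Hep3B on control arrays, so it too was above the background range in PLC.

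Proteins that anchor keratin filaments (9 genes) varied between lines more than with ATAD2 siRNA. Desmoplakin (DSP), which ties keratin filaments to desmosomes, averaged 10.99 in SNU449, 10.74 in PLC and 8.69 in Hep3B on control arrays, and FAM83H, a keratin-binding protein, 8.0, 7.76 and 5.30. Both followed KRT8 in being lowest in Hep3B. Periplakin (PPL) averaged 8.43, 4.25 and 8.43, and epiplakin (EPPK1) 7.0, 4.26 and 6.46, so both were lowest in PLC. With ATAD2 siRNA plectin (PLEC) was the only member called, and it fell in Hep3B (8.11 against 8.49, -0.39 ± 0.09, limma adjusted p = 0.00956); 0 of 9 were called in SNU449 and PLC. This 1 of 9 stands beside 12.5% of all genes called in Hep3B.

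Of 13 intermediate filament genes outside the keratins, 1 rose and 5 fell in Hep3B with ATAD2 siRNA, where 12.5% of all genes were called, and 0 were called in SNU449 and PLC, where 0.0759% and 3.21% of all genes were. Nestin (NES) read 8.06 against 8.62 (-0.56 ± 0.09, limma adjusted p = 0.000362), peripherin (PRPH) 6.57 against 6.99 (-0.42, adjusted p = 0.00318), GFAP 5.75 against 6.12 (-0.37, adjusted p = 0.00967) and lamin B1 (LMNB1) 9.22 against 9.55 (-0.33, adjusted p = 0.0380). GFAP is also 1 of the genes whose probe sets set the background range, so that range cannot tell whether GFAP was detected. Lamin A/C (LMNA) fell (-0.23, adjusted p = 0.0327) and synemin (SYNM) rose (0.22, adjusted p = 0.0296). Vimentin (VIM), the mesenchymal filament protein that many carcinoma lines express beside keratins, was high in all lines, with control means of 11.56 in SNU449, 10.50 in PLC and 13.30 in Hep3B.

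Of 15 transcription factors of the epithelial state, 2 were called in Hep3B with ATAD2 siRNA, both higher, a share near the 12.5% of all genes called there. GRHL1, a grainyhead factor of epithelial barriers, averaged 5.82 against 5.14 (0.68 ± 0.11, limma adjusted p = 0.000537), inside the background range, and KLF5 6.54 against 6.10 (0.45 ± 0.12, adjusted p = 0.0245). None was called in SNU449 or PLC. On control arrays TFAP2C, an AP-2 factor, averaged 3.74 in SNU449, 7.38 in PLC and 9.79 in Hep3B, and TFAP2A 6.15, 6.81 and 9.82. ZEB1, a repressor of epithelial genes, averaged 4.08 in SNU449, 8.60 in PLC and 9.0 in Hep3B, so PLC held high KRT8 and KRT18 signal beside high ZEB1 signal.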

How the data were processed

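Total RNA of 18 cultures (3 cell line labels, ATAD2 siRNA or control siRNA, 3 replicates per group) was measured on Affymetrix 3′ expression arrays. The deposited values are log2 signals per probe set, judged so from their range of 1.33 to 14.0, and limma is the only tool named per the submitters' processing notes, without a version. How the authors corrected background and normalized is not given in the sources used here. The sorted values of 2 arrays of the same line differed by at most 0.16 and those of different lines by up to 1.51, so the deposited columns look scaled line by line, and they were quantile normalized again over all 18 arrays. No 2 arrays were identical. Array signals carry no counts, and the number of arrays per group limits the precision.

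Probe sets were named by the platform annotation: 41097 of 54675 have 1 gene symbol, 1801 have several and 11777 have none. limma 3.58.1 in R 4.3.3 was fitted to all 54675 probe sets with 6 group means that share 1 spread (12 residual and 4.01 prior degrees of freedom), with Benjamini-Hochberg adjustment over all of them and a threshold of 0.05. Comparisons of lines on control arrays also needed a log2 difference of 1. Errors are SE for differences and SD for groups of 3, and intervals are at 95 percent. A gene with several probe sets was represented in lists by its brightest. The fit was tested on simulated data. The members, gene lists and tests were chosen with earlier results of these data known. Genes named are the 8 keratins, ATAD2, RB1, up to 4 called members of each list and comparison by largest change, and the 3 nearest profiles of each keratin; LMNA and SYNM were named after their values were seen, and marker genes are named as their lists. Replicate numbers do not pair the arrays: residual correlations between arrays of the same number were -0.10 to 0.07 and those of different numbers -0.10 to 0.09. Alternatives were other scalings, filters on dim probe sets, 1 or averaged probe sets per gene, separate fits, an intensity trend, a replicate block, other thresholds, each array left out and, added after the data were seen, the 5′ to 3′ covariate and PLC without 2 siRNA arrays. Promoter sequences are from RefSeq.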

Additional observations from a re-analysis of the deposited data

Results flagged for a closer look

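For 3 keratin probe sets the response to ATAD2 siRNA differed between line labels in limma's test of the interaction. The KRT8 response on 209008_x_at was lower in PLC than in Hep3B, with a difference of -0.94 (adjusted p of the joint test 0.0236): it was -0.43 in PLC, lower on 3 of 3 siRNA arrays, and 0.51 in Hep3B, higher on 3 of 3. This joint call was lost with the replicate block (0.0551) and without Hep3B control replicate 1 or 2 (0.0526 and 0.0672). The fall in PLC was not called by itself, and 1 of its siRNA arrays (11.03) lay just below the lowest control (11.06). With the 5′ to 3′ covariate the change in PLC was -0.06 (limma adjusted p = 0.843), while the joint test still passed (0.0251). The KRT7 response on 209016_s_at was higher in SNU449 than in Hep3B, with a difference of 1.51 (joint test 1.58e-05): it was 0.43 in SNU449, inside the background range, and -1.08 in Hep3B. The KRT80 response on 231849_at differed in the same way by 1.0 (joint test 0.000756), with 0.20 in SNU449, inside the background range, and -0.80 in Hep3B.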

How the results depend on the processing

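Of 29 called keratin results, 19 kept their direction and their side of the threshold in all alternatives, among them the falls of KRT7 (-1.18 to -0.33, the smallest with the 4 probe sets averaged) and KRT80 (-0.82 to -0.68) in Hep3B. The keratin probe sets called with ATAD2 siRNA were 4 in Hep3B, 3 with each line fitted by itself (without KRT18) and 2 at an adjusted p of 0.01. In PLC the count was 0, but 1 (KRT8) in the values as deposited, with median-centred arrays and with an intensity trend, and 1 (KRT7 214031_s_at) with the 5′ to 3′ covariate. It was 2 without both PLC siRNA replicates 1 and 3 (KRT7 214031_s_at and KRT80), which leaves 1 array, at background signal for both (2.86 and 5.22), with the spread of the other groups assumed. In SNU449 it was 0, but 1 (KRT7) without the dimmest 50% of probe sets and with the trend. Leaving out 1 array gave 2 to 4 in Hep3B, 0 to 4 in PLC (4 without siRNA replicate 2) and 0 in SNU449. For probe sets that differ in response it gave 2 to 5 (5 without PLC siRNA replicate 2), for SNU449 minus Hep3B 6 to 7, for PLC minus Hep3B 6 to 7 and for SNU449 minus PLC 2 to 3. With a replicate block the counts were 4 (Hep3B), 0 (SNU449) and 0 (PLC), with 2 that differ in response (KRT7 and KRT80, not KRT8), and 7, 6 and 3 between lines; the block changed no call within a line. SNU449 minus PLC had 3 calls, but 7 as deposited, 7 with quantiles within lines and 8 with median-centred arrays. With no minimum difference 11, 11 and 13 passed for SNU449 minus Hep3B, PLC minus Hep3B and SNU449 minus PLC. Scaling reversed KRT80 for SNU449 minus PLC (1.02 as deposited, 1.0 with quantiles within lines) and KRT10 for PLC minus Hep3B with median-centred arrays (1.06 on 207023_x_at, 1.26 on 210633_x_at).

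Over all probe sets the siRNA calls numbered 4844 for Hep3B (2696 to 6529), 24 for SNU449 (9 to 161) and 1881 for PLC (3 with the line fitted by itself, 7588 without siRNA replicate 2), and 2555 differed in response (898 to 6736). Between lines they were 9362 (3232 to 32307), 8663 (2951 to 34662) and 9468 (3108 to 35853). The share of higher calls for PLC minus Hep3B was 52.2%, 12.2% as deposited and 89.9% median-centred; for SNU449 minus PLC 49.2%, 91.0% and 9.84%; for SNU449 minus Hep3B 51.2%, 61.6% and 47.4%. For ATAD2 siRNA the same 3 shares were 57.3%, 64.6% and 75.5% on Hep3B arrays; on SNU449 arrays 45.8%, 65.5% and 84.8%; on PLC arrays 46.4%, 28.0% and 19.2%. Fits of single lines give no interaction, and filters on dim probe sets leave 10 of the 14 at 50%. Causes were not tested. Signals in or near the background range limit what can be said of KRT15, of 3 KRT7 probe sets and of KRT19 228491_at. The same limit holds for KRT7, KRT19, KRT23 and KRT80 outside their high line.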
